A study of Homo sapiens with 2 samples.

Results

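The axon guidance ligands and receptors are the gene families that steer growing axons and migrating cells. They were taken by gene symbol from the gene tables as the semaphorins, plexins, neuropilins, ephrins, Eph receptors, Slits, Robo receptors, netrins, UNC5 receptors, DCC and NEO1, which gave 70 of the 23352 genes listed for both libraries. Of the 70 genes, 35 encode ligands and 35 encode receptors. The families were picked with earlier results of these data known, and their genes were then taken by name alone.

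The libraries came from A673, an established Ewing sarcoma cell line that carries the EWS-FLI1 fusion, after lentiviral delivery of a short hairpin RNA. By the titles, 813Pool carries the hairpin sh813 against RUNX3, a Runt-domain transcription factor, and NT_Pool carries the non-target hairpin shNT. Both populations were given polybrene at 6 µg/mL and selected for 6 days in 0.4 µg/mL puromycin, and both were grown in medium with 10% FBS. There is 1 library per group, made from a population transduced with 1 hairpin sequence, so differences have no replicate check and carry no p-value. The titles and the hairpin field of the labels contradict each other for both libraries: the hairpin field gives the non-target hairpin for 813Pool and the RUNX3 hairpin for NT_Pool. The libraries are therefore called by the start of their titles, and taking the hairpin field instead would turn every direction below round. RUNX3 had 387 read pairs in 813Pool and 1391 in NT_Pool, a log2 fold of -1.92 (95% counting interval -2.09 to -1.76), which goes with the titles.

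Axon guidance cues act in pairs of ligand and receptor at the cell surface. Netrins attract through DCC and neogenin and repel through UNC5 receptors; Slits repel through Robo receptors; semaphorins signal through plexins, the secreted class with neuropilins as co-receptors; ephrins and Eph receptors signal in both directions between touching cells. The same families act outside the nervous system in vessels, bone and tumours, and the UNC5 receptors and DCC are known as dependence receptors, which can trigger cell death when netrin is absent.

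Depth was close to equal, at 23342660 and 24326135 read pairs assigned to genes in 813Pool and NT_Pool. Folds are of 813Pool over NT_Pool, scaled by TMM, and their intervals cover counting error only. Levels are the authors' RPKM, read counts scaled to gene length and library size; RPKM ratios run 0.13 above the TMM folds on the log2 scale, so genes near 0 can differ in sign between them. Genes that reached 1 CPM in either library count as measured. A call, higher or lower, needed a difference of 2-fold and a 95% interval lying wholly beyond 1.5-fold. All 8 of the Ewing sarcoma markers examined, among them CD99, NKX2-2 and NR0B1, were above 4 RPKM in both libraries. NKX2-2 and NR0B1 were called lower in 813Pool, at log2 folds of -1.43 and -1.11, and STEAP1, not called, had one of -0.83. CCND1 and FLI1 had folds of 0.62 and 0.61, and CD99, PRKCB and LIPI had folds of 0.08, 0.15 and 0.22. The part of these Ewing sarcoma markers in the values below was not tested. Of 4 epithelial markers none was measured, 1 of 4 endothelial and 1 of 4 leukocyte markers was measured, and PTPRC, CD3E, CDH1 and EPCAM had at most 1 pair in either library. The measured leukocyte marker, CD68, stood at 4.85 RPKM in 813Pool and 4.64 RPKM in NT_Pool. All 4 neuronal markers were measured, with summed levels of 4.70 RPKM in 813Pool and 4.11 RPKM in NT_Pool. RBFOX3 was the called neuronal marker, with 8 pairs in 813Pool and 48 in NT_Pool (-2.59), and it reached 1 CPM only in NT_Pool. SYT1 had 293 and 150 pairs (0.89), and SNAP25 and SLC17A7 had log2 folds of 0.07 and -0.15. The part of these markers in the values below was not tested. In these bulk libraries fewer cells of a type and less RNA per cell cannot be told apart.

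In all, 47 of the 70 genes were measured, of which 6 were called higher in 813Pool, 3 lower and 38 neither. Over all 12254 measured genes, 8.13% were called higher and 3.48% lower. The median log2 fold was 0.16 over the measured guidance genes and 0.01 over all measured genes, with 25 guidance genes above 0 and 22 below it. This split depends in part on the filter. UNC5C, SEMA3A, SEMA3G, EFNA5 and NRP2, all above 0, reached 1 CPM only in 813Pool, and UNC5D, below 0, only in NT_Pool. At 5 CPM or more the medians were -0.02 for the guidance genes and -0.04 for all genes. With plain totals or RPKM in place of TMM the counts were 8 higher and 2 lower. Of all measured genes, 10.8% were then called higher and 2.46% lower with plain totals, and 10.7% and 2.49% with RPKM. The counts are set beside the shares of the whole table as a description of these libraries, and nothing is read from them about the families as a group. The genes called higher were UNC5B, UNC5C, SEMA3A, EPHA4, ROBO2 and SLIT2, and those called lower were UNC5A, EPHB3 and SEMA4G. The other 23 genes had at most 22 pairs in 813Pool and at most 21 in NT_Pool.

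**Figure D1:**
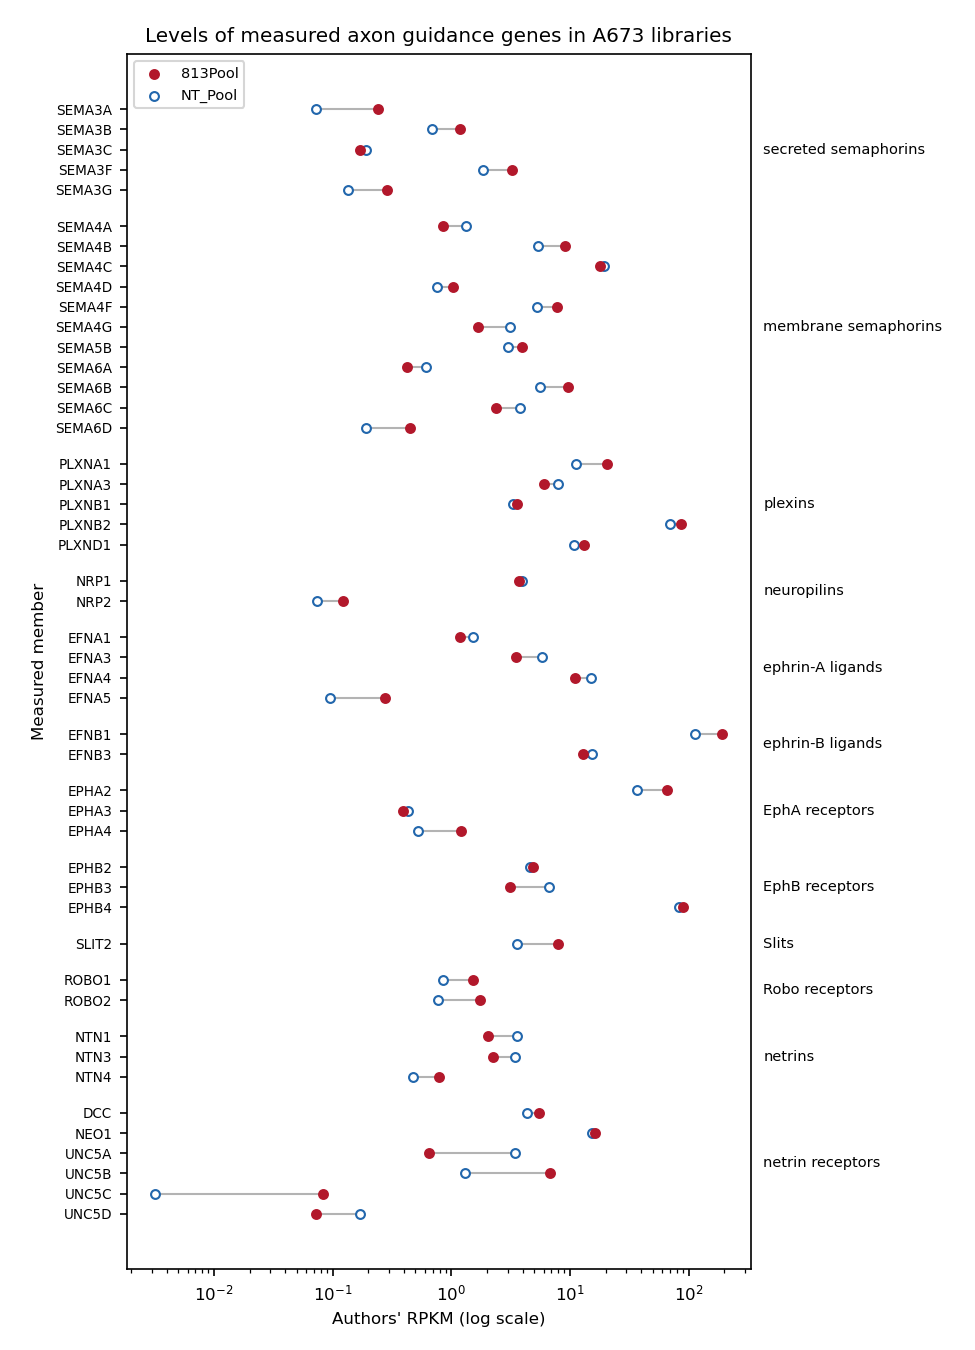
Levels of the 47 measured axon guidance genes, as the authors' RPKM on a log axis, in 813Pool (filled) and NT_Pool (open), grouped by family. EFNB1, EPHB4, PLXNB2 and EPHA2 lie highest in both libraries, and UNC5C, UNC5A and UNC5B show the widest gaps between the libraries.

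The highest levels were those of EFNB1, EPHB4, PLXNB2 and EPHA2. EFNB1, which encodes the ligand ephrin-B1, stood at 193 RPKM in 813Pool and 114 RPKM in NT_Pool. The EphB receptor EPHB4 stood at 89.0 and 83.0 RPKM, and the plexin PLXNB2, a receptor of class 4 semaphorins, at 85.8 and 70.5 RPKM. EPHA2, an Eph receptor known from many carcinomas, stood at 66.2 RPKM in 813Pool and 36.5 RPKM in NT_Pool. None of these 4 genes was called by the rule.

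The largest differences lay among the netrin receptors, and within the UNC5 family they ran in opposite directions. UNC5B (chr10:72972292-73062635, hg19) had 1434 pairs in 813Pool and 283 in NT_Pool, or 6.84 and 1.30 RPKM. It was 4.80-fold higher in 813Pool (log2 2.26, interval 2.08 to 2.45). UNC5A (chr5:176237560-176307899, hg19) had 74 pairs in 813Pool and 406 in NT_Pool, or 0.652 and 3.44 RPKM. It was 5.75-fold lower (log2 -2.52, interval -2.91 to -2.17). Both genes encode single-pass netrin receptors with a cytoplasmic death domain.

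The other UNC5 genes had low counts. UNC5C had 25 pairs in 813Pool and 1 in NT_Pool, a log2 fold of 4.01 with an interval of 1.96 to 9.93, and it passed the 1 CPM filter only through 813Pool. UNC5D, at 16 and 39 pairs, had a log2 fold of -1.33 (-2.30 to -0.49) and was not called. It passed the 1 CPM filter only through NT_Pool. Once a trend of the folds over GC content and gene length was removed, UNC5D was called lower at -1.78. UNC5A, UNC5B and UNC5C kept their calls under all 6 other ways of scaling or counting that were tried for each gene, while the fitted fold of UNC5C moved to 3.09 with a larger prior count.

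Summed over the 4 UNC5 genes, the level was 7.65 RPKM in 813Pool and 4.92 RPKM in NT_Pool. UNC5B made up 89.4% of that sum in 813Pool and 26.5% in NT_Pool. For UNC5A the shares were 8.52% and 70.0%. The main UNC5 transcript was thus UNC5B in 813Pool and UNC5A in NT_Pool.

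Neither attractive netrin receptor was called. NEO1, the DCC relative neogenin, was the most abundant netrin receptor at 16.1 RPKM in 813Pool and 15.4 RPKM in NT_Pool (log2 -0.06, interval -0.13 to 0.01). DCC stood at 5.53 and 4.34 RPKM (log2 0.22, interval 0.12 to 0.32), and its fold turned to -0.26 (-0.37 to -0.16) with the same trend removed.

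Among the ligands, NTN1, the founding secreted netrin, had 368 pairs in 813Pool and 674 in NT_Pool, a log2 fold of -0.95 (-1.14 to -0.76) that fell short of 2-fold. NTN3 had 136 and 216 pairs (-0.74). NTN4, a basement membrane netrin, had 86 and 54 pairs (0.59). NTN5 was not measured, with 3 and 8 pairs. No netrin was called, and of the 3 measured netrins NTN1 and NTN3 were below 0 and NTN4 above it.

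**Figure D2:**
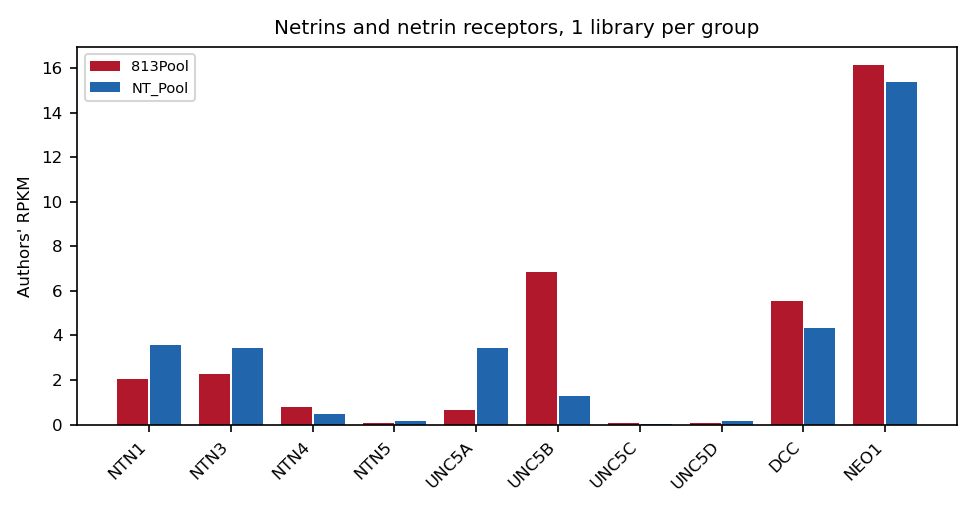
Authors' RPKM of the netrins and netrin receptors, as bars from 0, in 813Pool (left bar) and NT_Pool (right bar), with 1 library each and so no error bars. UNC5A and UNC5B swap places between the libraries, while NEO1 stands near 16.1 and 15.4 RPKM.

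The upstream sequences of UNC5A and UNC5C, which differ in opposite directions, and of EFNB1, the most abundant member, were read from RefSeq (GRCh38.p14) as the 250 bases before the annotated start. UNC5A lies at chr5:176810309-176810558 on the plus strand, UNC5C at chr4:95548974-95549223 on the minus strand and EFNB1 at chrX:68828771-68829020 on the plus strand. Capitals mark letters found by a search on both strands for the RUNX core (TGTGGT or TGCGGT) and for a pair of GGAA repeats (GGAAGGAA), the letters known from EWS-FLI1 binding. The motifs do not overlap in these windows.
UNC5A: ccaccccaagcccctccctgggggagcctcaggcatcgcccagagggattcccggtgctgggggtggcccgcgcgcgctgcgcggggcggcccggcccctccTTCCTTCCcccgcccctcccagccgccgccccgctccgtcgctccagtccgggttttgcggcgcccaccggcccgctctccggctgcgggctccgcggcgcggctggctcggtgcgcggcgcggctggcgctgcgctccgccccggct
UNC5C: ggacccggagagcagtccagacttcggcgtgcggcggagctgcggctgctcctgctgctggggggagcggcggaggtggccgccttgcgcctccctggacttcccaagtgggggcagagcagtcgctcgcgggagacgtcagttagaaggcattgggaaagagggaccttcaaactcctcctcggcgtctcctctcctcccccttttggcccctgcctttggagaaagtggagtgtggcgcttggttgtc
EFNB1: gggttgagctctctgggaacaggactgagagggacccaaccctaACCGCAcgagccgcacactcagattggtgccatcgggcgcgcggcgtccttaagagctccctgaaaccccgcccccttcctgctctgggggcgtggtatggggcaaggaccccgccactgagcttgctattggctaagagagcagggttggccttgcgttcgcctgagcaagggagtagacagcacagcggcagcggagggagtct
The UNC5A window held the repeat in its reverse complement, the EFNB1 window held a RUNX core in its reverse complement, and the UNC5C window held neither. RUNX core letters were present in 16.31% of 35116 windows of the same length and in 14 of the 92 windows of the 60 guidance genes with an entry. They were in none of the 10 windows of the 7 called genes with an entry, and UNC5B and SEMA3A had no entry. The GGAA pair was in 3.064% of all windows and in 4 of those 92, from EFNA4, PLXNB1, SLIT3 and UNC5A. Such letters are a description of the window and not a bound site, and whether these starts are the ones used in A673 cells was not tested.

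A Slit and a Robo receptor, SLIT2 and ROBO2, were both called higher in 813Pool. SLIT2, a secreted repellent, had 1188 pairs in 813Pool and 558 in NT_Pool, or 7.89 and 3.57 RPKM (log2 1.01, interval 0.87 to 1.16). ROBO2, a Slit receptor, had 460 and 212 pairs, or 1.74 and 0.773 RPKM (log2 1.04, interval 0.80 to 1.28). ROBO1, with 367 and 213 pairs, had a log2 fold of 0.71 (0.46 to 0.96) and was not called.

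SLIT2 and ROBO2 stood just past the 2-fold limit. The call of SLIT2 ended with DESeq2 size factors (0.998) and with the trend over GC content and length removed (0.66), and that of ROBO2 ended with the trend removed (0.93). SLIT2 made up 99.5% of the Slit level in 813Pool and 97.4% in NT_Pool. SLIT1 had 6 and 19 pairs, SLIT3 had 3 in each library, and neither was measured. ROBO3 had 18 and 15 pairs, and ROBO4, the endothelial Robo, had 1 pair in 813Pool and none in NT_Pool.

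Of the secreted class 3 semaphorins, 5 of 7 were measured and 1 was called. SEMA3A, which repels axons through NRP1 and class A plexins, had 42 pairs in 813Pool and 13 in NT_Pool (log2 1.58, interval 0.69 to 2.64). Its level was low in both, at 0.244 and 0.073 RPKM, and it passed the 1 CPM filter only through 813Pool. SEMA3F, a ligand of NRP2 known as a growth inhibitor in tumours, was the most abundant of the class at 3.27 RPKM in 813Pool and 1.86 RPKM in NT_Pool (log2 0.68, interval 0.43 to 0.94). SEMA3B and SEMA3G had log2 folds of 0.65 and 0.94, and SEMA3C one of -0.27. SEMA3D had 22 pairs in 813Pool and 21 in NT_Pool and was not measured. The call of SEMA3A ended with the trend removed, through the width of its interval, while its log2 fold was then 1.39.

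Among the membrane-bound semaphorins, 11 of 13 were measured and SEMA4G was called. SEMA4G had 225 pairs in 813Pool and 432 in NT_Pool, or 1.68 and 3.11 RPKM (log2 -1.02, interval -1.26 to -0.78). Its call ended with plain totals (-0.88), with RPKM (-0.89) and with the trend removed (-0.74). SEMA4G shares exon records with MRPL43 on the other strand, which held 55.5% and 51.0% of its exon reads in 813Pool and NT_Pool. Strand use in counting is not given in the sources used here, so reads of the 2 genes cannot be told apart there. Over the records it does not share, the log2 fold was -1.06.

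SEMA4C, a class 4 semaphorin that binds plexin-B2, was the most abundant semaphorin, at 18.1 RPKM in 813Pool and 19.5 RPKM in NT_Pool. SEMA4B and SEMA6B stood at 9.06 and 9.66 RPKM in 813Pool against 5.39 and 5.57 RPKM in NT_Pool, with log2 folds of 0.62 and 0.67. SEMA4A and SEMA6C had log2 folds of -0.79 and -0.80. SEMA6D had 95 pairs in 813Pool and 42 in NT_Pool, and its log2 fold of 1.09 missed the call because its interval began at 0.56. SEMA4D, SEMA4F and SEMA5B had log2 folds of 0.31, 0.43 and 0.27, and SEMA6A one of -0.64. The membrane-bound semaphorins therefore lay on both sides of 0, with 6 of the 11 measured genes above it and 5 below. SEMA5A and SEMA7A were not measured, at 4 and 22 pairs in 813Pool and 4 and 18 in NT_Pool.

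No plexin was called among 5 measured of 9, and their log2 folds ran from -0.50 for PLXNA3 to 0.74 for PLXNA1. PLXNA1, a co-receptor of class 3 semaphorins, had 5696 pairs in 813Pool and 3235 in NT_Pool, or 20.7 and 11.3 RPKM, and was called higher at 1.10 with the trend removed. PLXNB1, the receptor of SEMA4D, had 801 and 771 pairs (log2 -0.02). PLXND1, the receptor of SEMA3E, had 2767 and 2392 pairs (log2 0.13). NRP1, the neuropilin that binds SEMA3A and VEGF, stood at 3.72 and 3.98 RPKM (log2 -0.23), and NRP2 had 29 and 18 pairs.

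PLXNA2 and PLXNA4 had 5 and 6 pairs in 813Pool and none in NT_Pool. The exon tables list 15 and 8 reads for PLXNA2 and 10 and 2 for PLXNA4 in 813Pool and NT_Pool, and both genes stayed under the 1 CPM filter. PLXNB3 had 10 and 5 pairs and PLXNC1 8 and 7. SEMA3E, the ligand of PLXND1, had 3 and 1 pairs and was not measured.

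**Figure D3:**
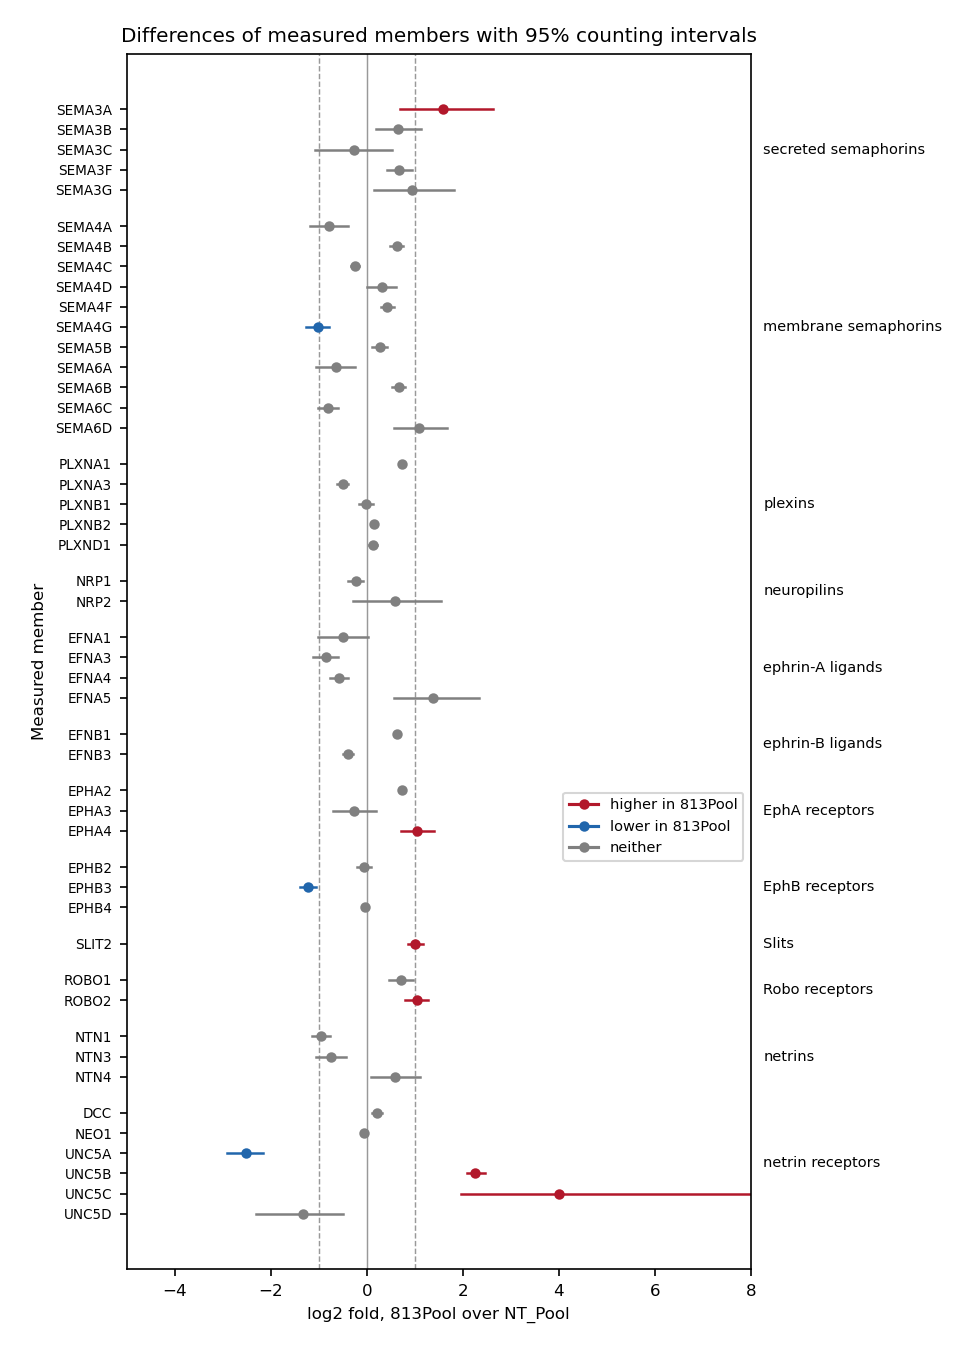
Log2 folds of the 47 measured guidance genes, 813Pool over NT_Pool, with bars for the 95% counting interval and dashed lines at 2-fold. The 6 genes called higher and 3 called lower are in colour; the bar of UNC5C runs past the right edge to 9.93.

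Among ephrins and Eph receptors, which include 3 of the 4 most abundant guidance transcripts, 2 receptors were called, in opposite directions. EPHA4, a receptor of both ephrin classes, had 233 pairs in 813Pool and 106 in NT_Pool, or 1.21 and 0.529 RPKM (log2 1.06, interval 0.72 to 1.41). EPHB3 had 402 and 893 pairs, or 3.13 and 6.70 RPKM (log2 -1.23, interval -1.40 to -1.06). Both calls ended with the trend removed, where the log2 folds were 0.66 and -0.83.

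EPHA2 had 7978 pairs in 813Pool and 4573 in NT_Pool, a log2 fold of 0.73 (0.67 to 0.78). It was 1.66-fold higher, under the 2-fold limit, and with the trend removed it was called, at 1.07. EPHB4 was level, with 11782 and 11401 pairs (log2 -0.03). EPHB2 had 719 and 712 pairs (-0.06) and EPHA3 80 and 91 pairs (-0.26). The other EphA receptors, EPHA1, EPHA5, EPHA6, EPHA7, EPHA8 and EPHA10, had 0 to 21 pairs in 813Pool and 0 to 18 in NT_Pool, and EPHA8 had no pair in either. EPHB1 had 7 and 3 pairs and EPHB6 7 in each library. EPHA2 made up 97.1% of the EphA level in 813Pool and 96.6% in NT_Pool.

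The ephrin-B ligands came nearly wholly from EFNB1, which made up 93.7% and 88.1% of the class level in 813Pool and NT_Pool. EFNB1 had 19537 pairs in 813Pool and 11969 in NT_Pool, a log2 fold of 0.63 (0.60 to 0.66). EFNB3 had 1258 and 1559 pairs (-0.38), and EFNB2, known from arteries, had 5 and 1 and was not measured. No ephrin was called.

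Among the membrane-anchored ephrin-A ligands, EFNA4, at 10.98 RPKM in 813Pool and 14.99 RPKM in NT_Pool, was the most abundant. Its log2 fold was -0.58, that of EFNA3 was -0.86 and that of EFNA1 was -0.49. EFNA5 had 45 and 16 pairs, and its log2 fold of 1.39 missed the call because its interval began at 0.57. EFNA2 had 18 and 16 pairs and was not measured. EFNA3 shares 42.2% and EFNA4 10.7% of their transcript's 50-base words with AL691442.1, a gene of another annotation than that of the counts. Among the counted exon records, EFNA3 overlaps no other gene. EFNA4 shares its first record with LOC100505666, and that record held 8.03% and 6.85% of its exon reads in 813Pool and NT_Pool. Over the 5 records of EFNA4 that overlap no other gene, the log2 fold was -0.59.

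**Figure D4:**
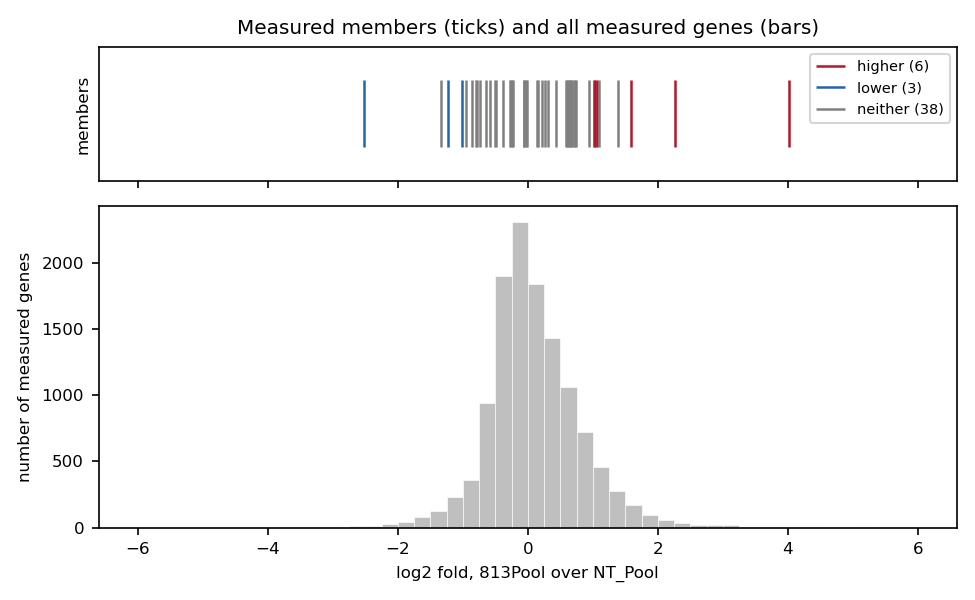
Log2 folds of the measured guidance genes as ticks (upper panel) and of all 12254 measured genes as a histogram in bins of 0.25 (lower panel), 813Pool over NT_Pool. The ticks spread across the histogram on both sides of 0, with UNC5A at the left end and UNC5C and UNC5B at the right end.

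The exon tables show whether a difference held along a gene. Among exon records with 20 reads or more, all 17 of UNC5B were higher in 813Pool, with log2 folds from 0.60 to 2.69. All 14 of UNC5A were lower, from -3.55 to -1.70. All 37 of SLIT2, all 25 of ROBO2 and all 15 of EPHA4 were higher, and all 16 of EPHB3 were lower. EFNB1, below the 2-fold limit as a gene, was higher in all 5 of its records, from 0.61 to 0.65. UNC5A overlaps HK3, on the other strand, at its last record, and over the other 14 records its log2 fold was -2.50.

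In 4 records of guidance genes the fold departed at least 2-fold from the rest of the gene with intervals that did not overlap, of 566 records with enough reads in 40 genes. Over all genes 0.443% of 92842 records departed. The record that departed farthest was the last of ROBO2 (chr3:77695205-77699114, hg19), a stretch of 3910 bases with 92 reads in 813Pool and 12 in NT_Pool. It held 7.92% of the gene's exon reads in 813Pool and 2.17% in NT_Pool. Its log2 fold was 2.76, against 0.91 over the other records. Over the last 4 records of ROBO2 together the log2 fold was 2.72, with 138 and 19 reads, against 0.86 over the 23 before them. That split was not set beforehand.

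The last record of DCC (chr18:51056934-51062273), 5340 bases long, had 980 reads in 813Pool and 462 in NT_Pool. The other 28 records together had 3035 and 2879 reads. The log2 fold was thus 1.01 in the last record (0.78 to 1.24) and 0.00 in the rest (-0.10 to 0.11), a departure just past the 2-fold limit. Singly, the other 28 records ran from -0.57 to 0.50, and records 19 to 28 all lay above 0. The interval of each of records 19 to 28 included 0. The last record held 24.4% of the DCC exon reads in 813Pool and 13.8% in NT_Pool.

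NRP1 also departed at its last record (chr10:33466419-33469293), with 196 and 105 reads and a log2 fold of 0.82, against -0.34 in the rest. The remaining departure was record 8 of SEMA4G (chr10:102738859-102739028), with 57 and 50 reads and a log2 fold of 0.11 against -0.97. Of the 34 guidance genes whose longest record has 1000 bases or more, 3 departed higher there and 0 lower. Over all 6666 such genes 95 departed higher and 26 lower, and the median departure was 0.07 for the guidance genes and 0.06 for all.

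**Figure D5:**
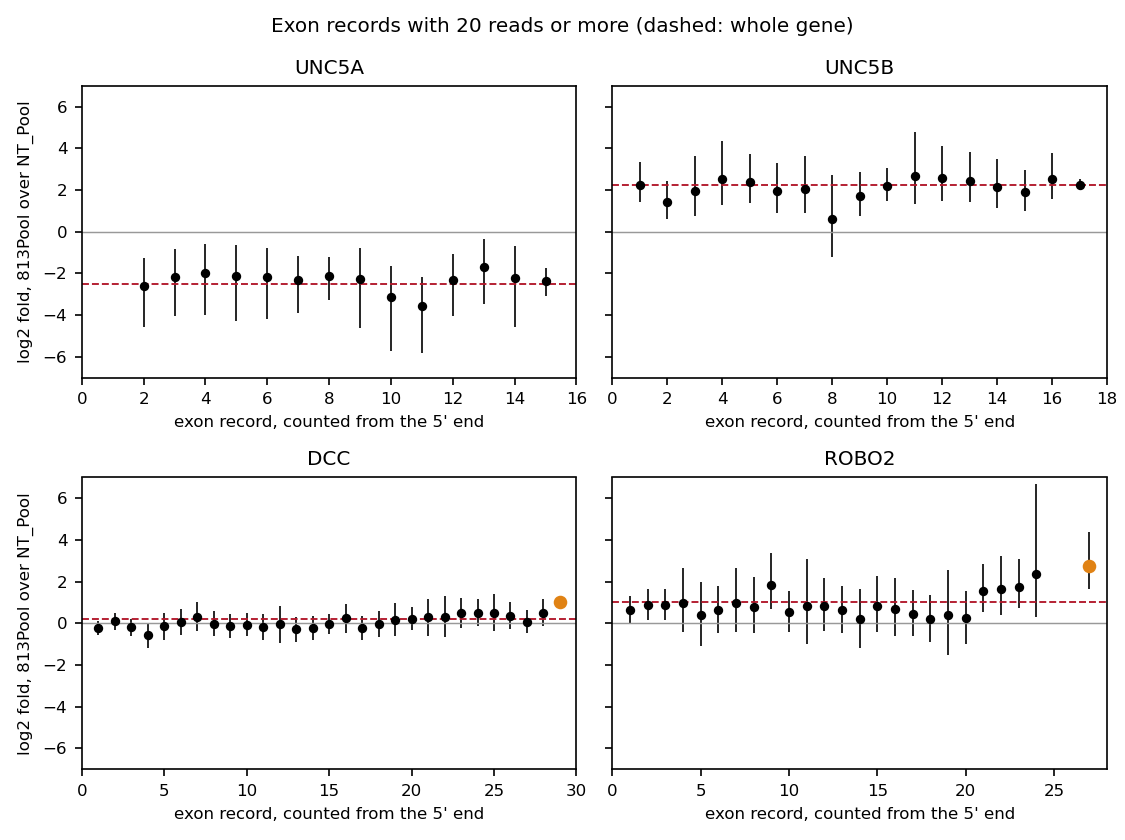
Log2 fold of each exon record with 20 reads or more, 813Pool over NT_Pool, along UNC5A, UNC5B, DCC and ROBO2, with 95% counting intervals cut at -7 and 7 and the fold of the whole gene as a dashed line. Records that depart from the rest of the gene are in orange. Before its last record, DCC runs from -0.57 to 0.50, with records 19 to 28 all above 0.

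At lower counts, UNC5D had 34 and 47 reads over its first 10 records in 813Pool and NT_Pool, and 4 and 44 reads over its last 7. The place of this split was chosen after the values were seen. The first record of UNC5A had 0 reads in 813Pool and 14 in NT_Pool. ROBO1 had no reads in its first 3 records in either library, while record 4 had 75 and 58.

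Around the ligands and receptors, 92 of 118 genes on 5 lists of signalling partners and other cues were measured, of which 16 were called higher and 8 lower, against 8.13% and 3.48% of all measured genes. Of 22 measured genes of Eph and ephrin signalling, 7 were called higher and 0 lower, with a median log2 fold of 0.57. TIAM1, a Rac exchange factor, had 34 pairs in 813Pool and 5 in NT_Pool (2.57), and passed the 1 CPM filter only through 813Pool. The kinase ABL2, the adaptor CRK and the Rac-GAP CHN2 had log2 folds of 1.44, 1.44 and 1.40. With the trend over GC content and length removed, 9 genes of the 5 lists together were called higher, against 6.37% of all measured genes.

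Of 24 measured genes of semaphorin and plexin signalling, 1 was called higher and 4 lower, with a median of -0.23. DPYSL3 and DPYSL4, of the collapsin response mediator family, had log2 folds of -1.61 and -1.70, and the GTPase RND1, which passed the filter only through NT_Pool, one of -1.52. The gene called higher was ARHGEF12, an exchange factor bound by class B plexins, at 1.44.

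Netrin signalling had 2 of 11 measured genes called higher, the actin-binding protein ABLIM1 at 1.15 and the focal adhesion kinase PTK2 at 1.05, and 1 lower, the GTPase RAC3 at -1.07. Slit and Robo signalling had 1 of 14 higher, the deubiquitinase USP33 at 1.37, which binds ROBO1, and 1 lower, the actin regulator EVL at -1.21. Of 21 measured genes of other guidance and adhesion cues 5 were higher and 2 lower. The teneurins ODZ2 and ODZ3, the adhesion molecule NRCAM and the netrin-G NTNG2 stood at 1.31, 1.40, 1.34 and 1.29. RTN4RL2, a relative of the Nogo receptor, and SLITRK3, a synaptic adhesion protein, stood at -1.09 and -1.43, and SLITRK3 passed the filter only through NT_Pool.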

How the data were processed

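Poly(A) RNA was sequenced from 813Pool and NT_Pool, 1 per group. Per the submitters' processing notes, CASAVA 1.9, TopHat2 2.0.6, HTSeq and hg19 were used; strand handling is not given in the sources used here. Per the file headers, each deposited table gives a gene's or exon's count and RPKM; gene length was taken from the same files. The deposited gene counts were all even, with 0 odd values in either library, so they were divided by 2 and read as read pairs; 36.4% and 35.6% of the deposited exon counts of 813Pool and NT_Pool were odd, and exon intervals used reads divided by 2. Of 23398 gene rows, 46 that repeated the symbol and both counts of another row were dropped. Among the symbols, 28 had turned into dates.

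Folds used TMM effective sizes (edgeR 4.0.16, R 4.3.3; factors 1.05 and 0.954), a prior of 0.5 pairs and exact conditional binomial (Clopper-Pearson) 95% intervals from scipy 1.17.1. Reads carry no molecular identifiers, so intervals cover counting error only; they say nothing of the spread between cultures. The authors' RPKM is scaled by the library total and gives log2 differences 0.13 above the TMM scale. Exon records were compared with the other records of their gene that do not overlap them, at 50 reads or more in genes with 200 or more. Scripts were tested on simulated data. Alternatives were plain totals, DESeq2 1.42.0 size factors, RPKM, a GC and length trend, prior counts, filters and call rules.

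The guidance genes and the 5 lists were chosen with earlier results of these data known. Values are given for every called gene and each family's most abundant gene, and of each list for up to 4 called genes per direction by interval bound (1 such gene is not reported here); other guidance genes are named where they complete a family. The labels of both libraries conflict, and groups follow the titles.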

Additional observations from a re-analysis of the deposited data

How the results depend on the processing

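The 3 UNC5 calls held under plain totals, DESeq2 size factors, RPKM, removal of a trend over GC content and length, a prior of 2 and undivided counts. Among the other 6 called guidance genes, EPHA4, EPHB3, ROBO2 and SEMA3A lost their call with the trend removed, SLIT2 also with DESeq2 size factors, and SEMA4G also with plain totals and RPKM; the cause was not tested. The higher and lower counts of 6 and 3 became 8 and 2 with plain totals and with RPKM (EFNA5 and SEMA6D newly higher), 7 and 2 with the trend removed (2 and 1 of them shared; EPHA2, PLXNA1, SEMA3B, SEMA3F and SEMA6B newly higher and UNC5D newly lower), and 18 and 10 at 1.5-fold with an interval that excludes no difference, where 19.8% and 11.2% of all measured genes passed. At 5 CPM or more the counts were 4 and 3, since fewer genes were tested (UNC5C and SEMA3A fell away), beside 7.88% and 3.60% of all genes tested. The median was then -0.02 for the guidance genes and -0.04 for all genes tested. With plain totals, the median of all measured genes was 0.15 and that of the guidance genes 0.29. With the trend removed, these medians were 0.07 and 0.34. Pathway genes called higher numbered 9 with the trend removed, and those called lower numbered 5 with plain totals, with RPKM and with the trend removed. Of all 12254 measured genes, 306 were called lower with the trend removed. The other shares of all measured genes called with the trend removed, with plain totals and with RPKM are those given above. Undivided exon reads gave 7 departing records, where 0.970% of all records tested departed. No guidance gene changed direction while called. No paired analysis was possible because each group has 1 library, and no replicate could be left out. Removing the trend turned the sign of uncalled folds for DCC (-0.26), SEMA4C (0.12), PLXNB1 (0.35), EPHB4 (0.32) and EPHB2 (0.04). Plain totals and RPKM turned those of EPHB2, PLXNB1, EPHB4 and NEO1, all within 0.12 of 0. Depth limits the 23 genes that were not measured, whose intervals are wide.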
